A study of Mus musculus with 6 samples.

Results

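Khdc3, Ooep, Tle6, Nlrp5, Padi6, Dppa2, Dppa4, Dppa3, Dppa5a and Tcl1 are genes of the oocyte and early embryo, several of which mouse embryonic stem cells also express. They were followed through every probe set whose platform annotation names one of them and no other gene. All 10 genes were found, on 11 probe sets, out of 18193 genes and 34945 probe sets that name 1 gene. The cells were R1, an established mouse embryonic stem cell line, kept with leukaemia inhibitory factor (LIF), which holds stem cells undifferentiated. A stably integrated short hairpin RNA (shRNA) targeted Pcl2 in 3 samples, and 3 others had a hairpin with mismatches as control. Pcl2, whose gene symbol is Mtf2, binds Polycomb repressive complex 2, which places a silencing mark on histone H3. All Pcl2 shRNA samples came from 1 clone, so the hairpin and the clone cannot be told apart, and the labels name biological replicates without saying what was repeated.

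Khdc3, Ooep, Tle6 and Nlrp5 encode proteins of the subcortical maternal complex, an assembly under the oocyte membrane that the embryo needs for its first divisions, and Padi6 is needed for the cytoplasmic lattices of the oocyte. Dppa2 and Dppa4 form a DNA-binding pair that helps switch on genes of the first embryonic transcription, Dppa3 (Stella) shields the maternal genome from loss of methylation and limits new methylation in the oocyte, and Dppa5a is an RNA-binding protein abundant in pluripotent cells. Tcl1 is a cofactor of the kinase Akt. Khdc3, Ooep and Dppa5a share an RNA-binding fold, the KH domain.

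Signals are array intensities in the units of the MAS5 algorithm, given for replicates 1, 2 and 3 in turn. Changes are differences of mean log2(signal + 7) of Pcl2 shRNA over control with limma's standard error (SE), so they understate the change of dim genes. The genes were picked with this same comparison already known, so their own values are a description and carry no test. A signal of 20.3, the highest that any of 27 control probe sets for bacterial genes gave, was taken as background. Mtf2 itself went from 1723 ± 220 to 1028 ± 150 (SD, n = 3 arrays per group) by its brightest probe set, log2 -0.74 (SE 0.17, limma adjusted p = 0.0157). Of its other probe sets, 3 gave log2 -0.68, -0.75 and -0.73, a dim one went from 51.2 ± 10.8 to 61.7 ± 9.40 (log2 0.25, SE 0.24), and the last was at or near background. With mismatch control replicate 1 left out Mtf2 had an adjusted p of 0.0519, and with Pcl2 shRNA replicate 3 left out one of 0.0574, neither below 0.05. Of 13095 genes tested, 1652 (12.6%) passed an adjusted p below 0.05, 584 higher (4.46%) and 1068 lower (8.16%). Leaving out Pcl2 shRNA replicate 2 left 979 genes past the threshold (261 higher, 718 lower), and taking the replicate number as a block gave 3113. The median change of all genes was log2 0.02. In bulk RNA fewer cells of a type and less RNA per cell cannot be told apart, which holds for every value below.

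Any part of promoter CpG content in the changes was not tested. The promoter windows of the 3 genes with the largest differences are shown first, as a description. Each runs from 250 bases before to 50 bases after the RefSeq transcription start on its own strand (GRCm38.p6), 5′ to 3′, with CpG dinucleotides, the sites of DNA methylation, in capitals. The Khdc3 window lies at chr9:73102148-73102447 on the plus strand, that of Ooep at chr9:78378539-78378838 on the minus strand and that of Tcl1 at chr12:105222688-105222987 on the minus strand.
Khdc3: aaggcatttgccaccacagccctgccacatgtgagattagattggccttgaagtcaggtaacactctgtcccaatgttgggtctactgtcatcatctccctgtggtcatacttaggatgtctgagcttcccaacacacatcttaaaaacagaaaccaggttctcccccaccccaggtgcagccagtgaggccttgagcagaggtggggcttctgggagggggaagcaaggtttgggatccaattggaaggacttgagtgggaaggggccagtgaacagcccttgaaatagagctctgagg
Ooep: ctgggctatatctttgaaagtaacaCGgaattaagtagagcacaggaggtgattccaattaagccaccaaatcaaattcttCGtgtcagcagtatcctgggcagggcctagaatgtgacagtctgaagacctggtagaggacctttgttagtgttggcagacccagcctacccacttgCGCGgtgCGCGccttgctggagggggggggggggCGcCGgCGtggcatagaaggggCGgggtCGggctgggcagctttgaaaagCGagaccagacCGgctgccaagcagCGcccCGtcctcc
Tcl1: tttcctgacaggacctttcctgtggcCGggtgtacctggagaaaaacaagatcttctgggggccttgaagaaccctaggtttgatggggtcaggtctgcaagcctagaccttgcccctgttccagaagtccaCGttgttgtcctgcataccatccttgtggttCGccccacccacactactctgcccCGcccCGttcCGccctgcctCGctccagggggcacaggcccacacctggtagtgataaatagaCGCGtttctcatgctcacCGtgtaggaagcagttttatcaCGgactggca

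The Khdc3 window held 0 CpG dinucleotides at a GC content of 52.7%. The Ooep window held 15, an observed over expected ratio of 0.602, and the Tcl1 window 11, a ratio of 0.462. Over all 32851 windows of the table the median ratio was 0.384, with quartiles of 0.176 and 0.75. The table held windows for 6 of the 10 genes. The upstream window of Tle6 had 18 CpG and its other window 3, and the pair of Nlrp5 windows had 9 and 1, while Padi6 had 2. Each window was searched on both strands for the octamer core ATGCAAA, the Sox motif CATTGTT, the Esrrb motif AAGGTCA, the Klf motif GGGTGTG, the E-box CACGTG and the E2f motif TCCCGC. None of these letters occurred in the Khdc3, Ooep, Tcl1 and Padi6 windows. The upstream Tle6 window held 2 E-box matches and 1 Klf match, and the Nlrp5 window with more CpG held 1 E2f match. Of all 32851 windows 6562 held the E2f motif. Among them 7.15% held the E-box, 7.95% the Klf motif, 4.63% the octamer core, 3.78% the Sox motif and 4.72% the Esrrb motif.

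Khdc3 had the largest difference of the 10 genes. Its control signals were 123, 134 and 56.9, and its Pcl2 shRNA signals were 933, 1232 and 692. The lowest shRNA array was 5.15 times the highest control array. The change was log2 3.15 (SE 0.31), 8.85-fold on the log2(signal + 7) scale and number 2 in size among the rises of all genes tested. Khdc3 safeguards chromosome number and DNA repair in early embryos and stem cells. Its control replicate 3 stood below the other controls, and without it the change was log2 2.78.

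Ooep, a second KH-domain protein of the maternal complex, had control signals of 387, 400 and 364. The shRNA arrays gave 930, 1180 and 1560. The groups did not overlap, the lowest shRNA array being 2.33 times the highest control array, and the change was log2 1.62 (SE 0.19), or 3.08-fold. The spread was wider in the shRNA cells, with an SD of 317 against 18.2 in the control.

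The other maternal-complex genes and Padi6 were dim. Tle6, a Groucho-related scaffold of the complex, had control signals of 40.4, 78.0 and 50.8 and shRNA signals of 59.9, 83.9 and 92.1. Its groups overlapped, with a change of log2 0.46 (SE 0.27). Nlrp5 (Mater) stayed at or below background on all 6 arrays, between 1.82 and 14.2, so it has no measured change. Padi6 lay between 7.97 and 20.4 in the control and between 11.8 and 25.5 in the shRNA cells, with 1 control and 2 shRNA arrays above background. Nlrp5 and Padi6 did not reach the signal filter of the fit and were not tested, so whether they changed is not known. Among the complex genes that were tested, Khdc3, Ooep and Tle6, the large differences were those of Khdc3 and Ooep.

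**Figure D1:**
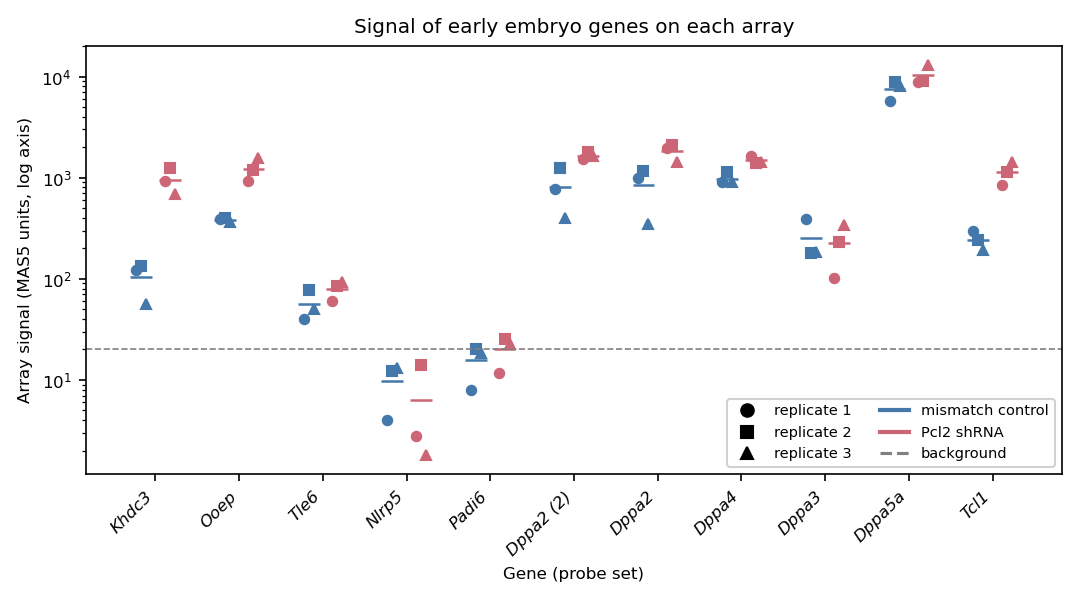
Array signal (MAS5 units, log axis) of the 11 probe sets on the 6 arrays, blue for mismatch control and red for Pcl2 shRNA, with a symbol for each replicate number, bars at group means and a dashed line at background (20.3). Khdc3, Ooep, Dppa2, Dppa4 and Tcl1 have every shRNA array above every control array, while Nlrp5 stays below background.

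Tcl1 had control signals of 293, 240 and 193. The shRNA signals were 854, 1138 and 1425. The lowest shRNA array was 2.91 times the highest control array, and the change was log2 2.19 (SE 0.22), or 4.56-fold, number 13 among all rises. It ranged from 2.01 to 2.38 when any 1 array was left out.

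Dppa2 and Dppa4, neighbours on chromosome 16, were both higher on every shRNA array. The brighter Dppa2 probe set gave 994, 1169 and 347 in the control and 1949, 2097 and 1432 in the shRNA cells, log2 1.28 (SE 0.38). Its second probe set gave 768, 1257 and 402 against 1513, 1790 and 1634, log2 1.16 (SE 0.34). Both were low in control replicate 3, and without that array the brighter one gave log2 0.74. Dppa4 was the more even gene of the pair, with 903, 1137 and 899 in the control and 1653, 1397 and 1431 in the shRNA cells, log2 0.61 (SE 0.16). Without any 1 array it stayed between 0.54 and 0.72.

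Dppa3 did not separate the groups. Its control signals were 393, 182 and 183 and its shRNA signals 102, 231 and 344, so that the lowest and the second highest arrays were both from shRNA cells. The change was log2 -0.22 (SE 0.42), and it turned to 0.25 without Pcl2 shRNA replicate 1 and to 0.14 without mismatch control replicate 1. By replicate number the difference was -1.88, 0.33 and 0.89. Dppa3 had the widest SE of the 8 early embryo genes that were tested.

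Dppa5a was bright in both groups. It gave 5790, 8917 and 8096 in the control and 8756, 9119 and 13000 in the shRNA cells, an overlap by a small margin, since the lowest shRNA array reached 0.982 times the highest control array. The change was log2 0.44 (SE 0.21). The highest signal of any probe set on an array was between 8091 and 14122, so Dppa5a was among the brightest probe sets. The reference gene table also lists the pseudogenes Dppa5b and Dppa5c on chromosome 9, and how far the probe set reads them is uncertain.

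**Figure D2:**
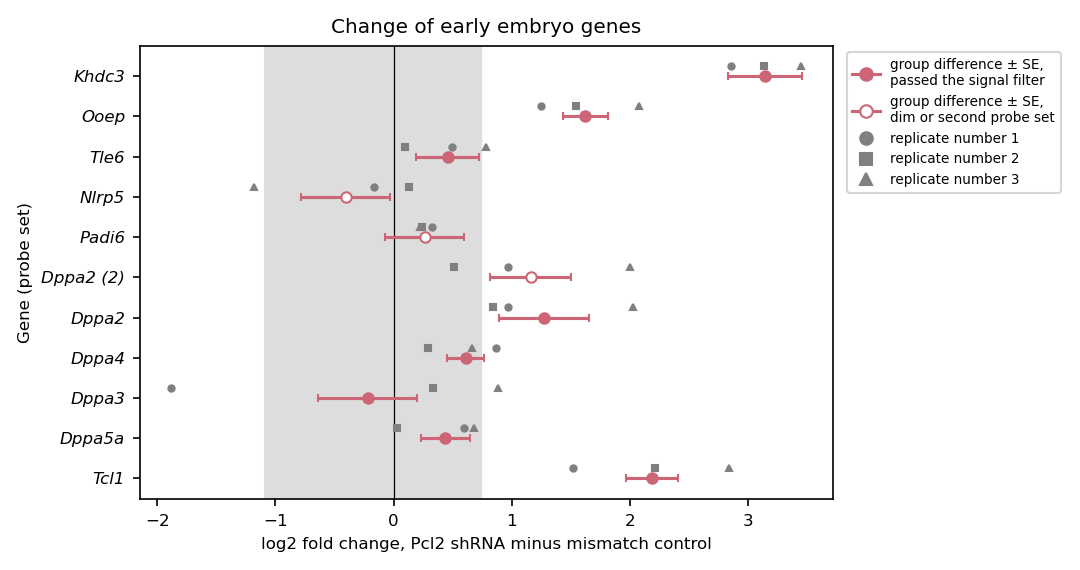
Difference of mean log2(signal + 7), Pcl2 shRNA minus mismatch control, with limma's SE for each probe set (open symbols are dim or second probe sets), and in grey the difference within each replicate number. The shaded band holds the middle of all tested genes, from the 5th percentile (-1.09) to the 95th (0.74), and Khdc3, Ooep, Tcl1 and both Dppa2 probe sets lie above it.

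Of the 10 genes 8 were tested. The change was positive for 7 of them and negative for 1, Dppa3. The groups did not overlap for 5, all higher in the shRNA cells, where 14.5% of all tested genes were higher without overlap. Khdc3, Ooep, Tcl1 and Dppa4 passed the threshold of the fit, 4 of 8, all higher, beside 4.46% of all genes. Dppa2 also passed with the filter at the 60th percentile, with signals floored at background, without _x_at and _s_at probe sets, and without mismatch control replicate 2 or 3. With the replicate block it passed too, 5 of 8, beside 23.8% of all genes in either direction and 9.97% higher. Dppa4 did not pass with median centring, without the intensity trend, or without any 1 of the arrays but mismatch control replicate 2. Because the genes were chosen on this comparison, nothing is read from these counts.

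The arrays ordered the genes in different ways. Control replicate 3 was the lowest control for 5 of the 8 tested genes (Khdc3, Ooep, Dppa2, Dppa4 and Tcl1). Pcl2 shRNA replicate 3 was the highest shRNA array for 5 (Ooep, Tle6, Dppa3, Dppa5a and Tcl1). The highest shRNA array was replicate 2 for Khdc3 and Dppa2, and both were lowest in replicate 3 of each group by their brightest probe sets. In Khdc3, Ooep and Tcl1 the difference within replicate numbers was smallest for number 1 (2.85, 1.25 and 1.52) and largest for number 3 (3.45, 2.08 and 2.84).

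The genes nearest to Khdc3 were found by the root mean square difference of mean-centred log2 values over the 6 arrays, a description that involves no test. The values were not scaled, so this distance rests largely on the size of the change between the groups. They were Myo1f, an unconventional myosin (0.313), Mymx, a driver of myoblast fusion (0.336), Inhbb, a subunit of activin B (0.342), the glutathione peroxidase Gpx2 (0.459) and the exporter Slc47a1 (0.461). The median over all genes was 1.64. Tcl1 stood at place 15 (0.660) and Ooep at place 77 (0.919) in this order. Nearest to Tcl1 were the junctional adhesion gene Jam2 (0.239), the lysosomal mannosidase Manba (0.253), 2410003I16Rik (0.258), the chromodomain gene Cdyl2 (0.262) and the homeobox gene Nkx6-3 (0.268), beside a median of 1.14. The control signals of 2410003I16Rik and Nkx6-3 were below background on all 3 arrays, as were those of Gpx2 on 2 and of Myo1f on 1, so the distances and places of these 4 genes rest in part on signals that were not measured. Ooep stood at place 14 (0.319), nearer to Tcl1 than to Khdc3. Its change of log2 1.62 was also nearer to that of Tcl1 (2.19) than to that of Khdc3 (3.15). Of the 10 genes named here only Myo1f, Inhbb, Jam2 and Cdyl2 had further probe sets with a mean above background, which gave 2.47 to 2.68 for Myo1f, 1.46 for Inhbb, 1.30 to 1.87 for Jam2 and 0.29 to 0.83 for Cdyl2.

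**Figure D3:**
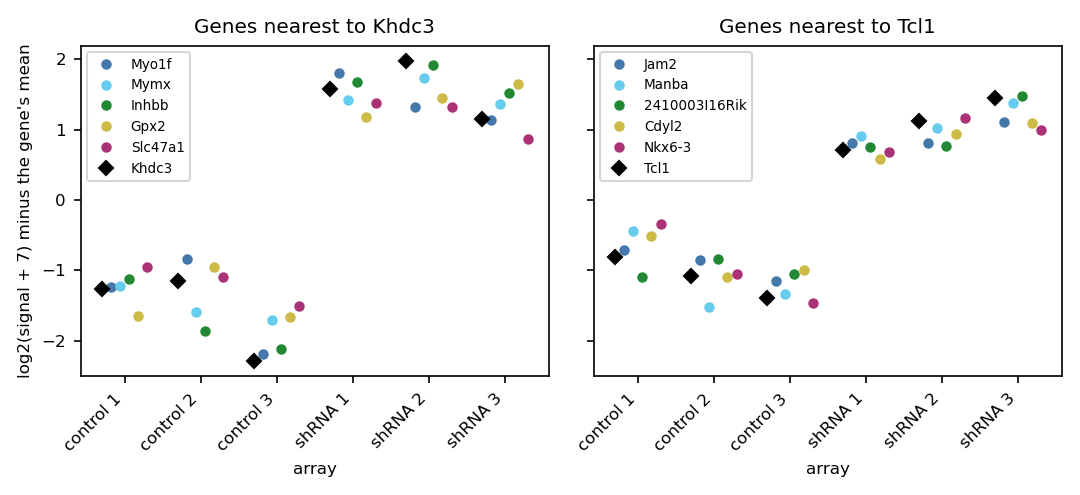
Log2(signal + 7) minus the gene's own mean on each array, for Khdc3 (left, black diamonds) and Tcl1 (right, black diamonds) with the 5 genes nearest to each in coloured circles. Every shRNA value lies above 0 and every control value below it, and some control values of Myo1f, Gpx2, 2410003I16Rik and Nkx6-3 come from signals below background.

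The genes beside them on the chromosome were measured in the same fit. Up to 2 tested genes on each side within 5 gene places were taken, which gave 21 genes that are not among the 10. Of these 4 rose, none fell and 17 did not pass, a share of 19.0% beside 12.6% of all genes. Morc1, a germline silencing gene 2 gene places from Dppa2, went from 702, 422 and 215 to 1829, 1497 and 1121 (log2 1.84, SE 0.36, limma adjusted p = 0.0076). Like Dppa2 and Khdc3 it was lowest in replicate 3 of each group. Ddx43, a germline helicase gene next to Ooep, rose from 32.3, 60.7 and 36.9 to 143, 163 and 140 (log2 1.67, SE 0.24, limma adjusted p = 0.0017). Rab27a, a vesicle transport GTPase beside Khdc3, rose from 55.7 ± 8.89 to 161 ± 37.5 (n = 3 arrays per group, log2 1.41, SE 0.23, limma adjusted p = 0.00346), and its other probe sets gave 0.16 and 0.86.

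The fourth was Tle5, a Groucho relative near Tle6, from 160 ± 41.9 to 308 ± 60.3 (n = 3 arrays per group, log2 0.93, SE 0.23, limma adjusted p = 0.024). Leaving out mismatch control replicate 1 gave Tle5 an adjusted p of 0.0587 and leaving out control replicate 2 one of 0.0663. Leaving out Pcl2 shRNA replicate 2 gave 0.0875 and shRNA replicate 3 gave 0.0826, so 4 of the 6 arrays decide this call. With the replicate block 7 of the 21 passed, all higher. The genes added by the block were Cgas near Ooep (log2 0.84, adjusted p = 0.0195 with the block and 0.0512 without), Pigbos1 near Khdc3 (log2 0.67, adjusted p = 0.0279 and 0.105) and Nanog near Dppa3 (log2 0.59, adjusted p = 0.0107 and 0.0888). Cgas also passed with signals floored at background (adjusted p = 0.0409) and without the intensity trend (adjusted p = 0.0408). Pigbos1 also passed without mismatch control replicate 1 (adjusted p = 0.0153) and Nanog without mismatch control replicate 3 (adjusted p = 0.0281). Around Tcl1 no tested gene passed. Tcl1b3, a Tcl1 paralogue 2 gene places away, gave 1599, 398 and 2056 in the control and 1497, 1644 and 1652 in the shRNA cells, and Tcl1b1 gave 44.4, 26.8 and 49.8 against 40.1, 29.3 and 38.4. The groups overlapped for both. Each was read by an _x_at probe set, a kind that can pick up related sequences, so how far it reads other genes is uncertain.

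**Figure D4:**
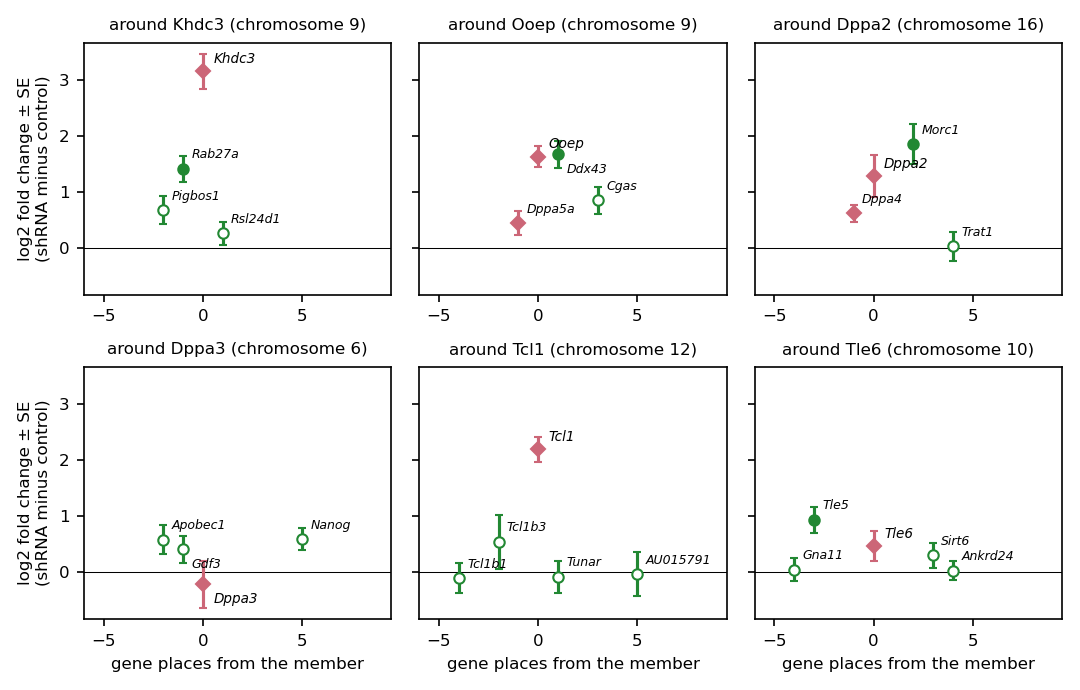
Log2 fold change ± SE, Pcl2 shRNA minus mismatch control, around Khdc3, Ooep, Dppa2, Dppa3, Tcl1 and Tle6, with early embryo genes as red diamonds and other tested genes within 5 gene places as green circles ( filled where they passed the threshold), by place along the chromosome. Morc1, Ddx43, Rab27a and Tle5 are the filled circles, and no circle around Tcl1 is filled.

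The gene lists below were chosen with earlier results of these data known, so nothing is read from their shares beside those of all genes. Other genes of the oocyte were mostly dim. Of 40 listed oocyte and maternal-effect genes, 33 had a probe set of their own, 11 were tested and 1 rose, beside 12.6% of all genes, with a median of log2 0.20. The gene was Sohlh2, a transcription factor of early germ cells (94.6, 113 and 139 to 228, 254 and 326, log2 1.17, SE 0.21, limma adjusted p = 0.0052). With the replicate block 3 rose, with a second called without mismatch control replicate 2. Zp3, a protein of the egg coat, gave 93.3, 87.0 and 34.1 in the control and 148.5, 171 and 60.8 in the shRNA cells. The groups overlapped, with replicate 3 low in each, while the shRNA array was the higher one for every replicate number. Zp3 did not pass the limma fit (log2 0.76, SE 0.42, adjusted p = 0.294) and passed with the replicate block (adjusted p = 0.0105).

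The 2-cell stage genes, some of which Dppa2 and Dppa4 help to switch on, could be followed only in part. Which of the listed genes the pair acts on was not examined. Of 32 listed, 13 had a probe set of their own and 6 were tested. By limma 0 of the 6 passed, also at an unadjusted p below 0.05 and with the replicate block, and their median was log2 0.11. The brightest were Nelfa, a subunit of the negative elongation factor (744 ± 69.4 and 788 ± 118), and Usp17la, a ubiquitin protease (132 ± 54.2 and 139 ± 49.2, n = 3 arrays per group).

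Of 16 tested genes of primordial germ cells, 5 rose, 2 fell and 9 did not pass, 43.8% beside 12.6% of all genes, with a median of log2 0.37. As for the other lists, nothing is read from this share. Mcf2, a guanine nucleotide exchange factor, went from 115, 116 and 71.6 to 309, 329 and 305 (log2 1.61, SE 0.21, limma adjusted p = 0.00103). Dazl, an RNA-binding protein that licenses germ cells, went from 26.6, 39.5 and 50.5 to 132, 121 and 211 (log2 1.81, SE 0.28, limma adjusted p = 0.0024). The membrane protein gene Ifitm3 fell from 3252 ± 315 to 1638 ± 83.2 (n = 3 arrays per group, log2 -0.98, SE 0.14, limma adjusted p = 0.00169).

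Among germline genes that DNA methylation keeps silent in other tissues, 6 of 17 tested rose, 1 fell and 10 did not pass, 41.2% beside 12.6%, with a median of log2 0.37. Smc1b, a meiotic cohesin gene, was at or below background on every control array and between 44.2 and 83.4 in the shRNA cells, at least 3.31-fold higher (limma adjusted p = 0.00198). Stag3, another meiotic cohesin subunit, rose from 60.7, 94.4 and 133 to 201, 251 and 367 (log2 1.46, SE 0.29, limma adjusted p = 0.00939). Tdrkh, a scaffold of piRNA processing, fell from 86.2 ± 15.2 to 31.9 ± 6.72 (n = 3 arrays per group, log2 -1.26, SE 0.24, limma adjusted p = 0.00637). Without Pcl2 shRNA replicate 2, 4 of this list passed, and 4 did with a stricter signal filter.

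Enzymes of DNA methylation and related factors, some of which act with Dppa2, Dppa3 or Dppa4, gave 3 higher, 1 lower and 7 that did not pass of 11 tested (36.4% beside 12.6%, median log2 0.29). Tet1 and Tet2, which oxidise methylated cytosine, rose from 774 ± 215 to 1902 ± 252 (log2 1.32, SE 0.21, limma adjusted p = 0.0026) and from 167 ± 12.1 to 421 ± 81.6 (log2 1.28, SE 0.19, limma adjusted p = 0.00183, n = 3 arrays per group). Zfp57, which guards methylation at imprinted loci, rose by log2 0.78 (SE 0.19, limma adjusted p = 0.0211). Zfp57 no longer passed with mismatch control replicate 1 left out (adjusted p = 0.0693) or Pcl2 shRNA replicate 2 left out (adjusted p = 0.114), and 2 of the list passed without the latter array. The gene that fell was Dnmt3b, a DNA methyltransferase, from 3693 ± 1020 to 2080 ± 363 (log2 -0.81, SE 0.21, limma adjusted p = 0.0336). Its other probe set gave log2 -1.44. The Dnmt3b call was lost with median centring, no signal filter or no intensity trend. It was also lost without any 1 array but mismatch control replicate 3.

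Relatives of these genes in sequence gave 1 of 12 tested, Tle5, higher (8.33% beside 12.6%, median log2 0.18), and 0 without mismatch control replicate 2 or Pcl2 shRNA replicate 2 or 3. Of 18 tested genes of the Akt pathway, in which Tcl1 acts, 2 rose, 2 fell and 14 did not pass (22.2% beside 12.6%, median log2 -0.11). Inpp5d, a phosphatase of the lipid that activates Akt, rose from 177 ± 28.7 to 435 ± 158 (n = 3 arrays per group, log2 1.22, SE 0.25, limma adjusted p = 0.00958). Akt1 itself fell from 284 ± 24.2 to 158 ± 28.1 (n = 3 arrays per group, log2 -0.83, SE 0.18, limma adjusted p = 0.015), a call lost without mismatch control replicate 1 (adjusted p = 0.0559), Pcl2 shRNA replicate 1 (0.0568) or Pcl2 shRNA replicate 2 (0.0769). The other Akt1 probe sets above background gave log2 -0.84 and -0.20. Pdpk1, the kinase that activates Akt, rose by log2 0.59 (SE 0.16, limma adjusted p = 0.0385), and this held without 1 array only when that array was Pcl2 shRNA replicate 1. Pdpk1 also did not pass with median centring (adjusted p = 0.0718) or without the intensity trend (adjusted p = 0.0693), and reached an adjusted p of 0.178 without Pcl2 shRNA replicate 2. The count on this list fell to 1 without mismatch control replicate 1 or Pcl2 shRNA replicate 2, to 2 without mismatch control replicate 3 or Pcl2 shRNA replicate 1, and was 7 with the replicate block.

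**Figure D5:**
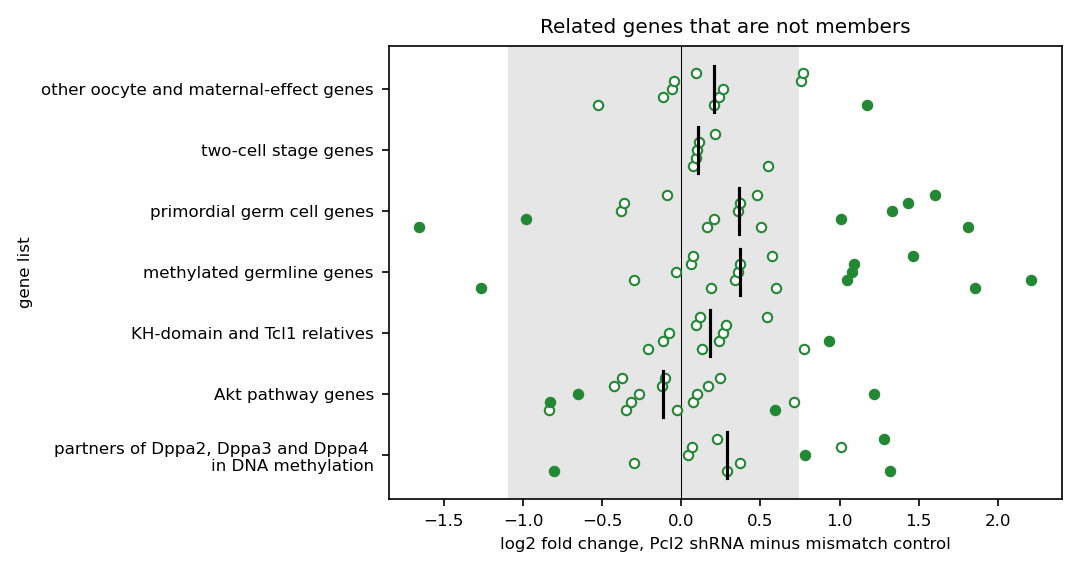
Log2 fold change, Pcl2 shRNA minus mismatch control, of each tested gene of 7 lists of related genes, filled where it passed the threshold, with the list's median as a black bar and the 5th to 95th percentile of all genes shaded (-1.09 to 0.74). The germ cell lists hold most of the filled points on the right, and no 2-cell stage gene is filled.

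Markers of the cell types that the cultures could hold were read on the same arrays. For comparison, limma called 4.46% of all tested genes higher and 8.16% lower. Under the replicate block the shares of all genes were 9.97% higher and 13.8% lower. As for the other lists, nothing is read from the marker counts beside these shares. All 8 stem cell markers, Pou5f1, Nanog and Sox2 among them, were above background on every array, and 3 of 8 rose, with a summed signal of 16406 to 19648 in the control and 22725 to 29568 in the shRNA cells. The 8 trophectoderm markers summed to 4965 to 9380 in the control and 1116 to 1505 in the shRNA cells. Of 6 tested 3 fell, Krt8, Krt18 and Cdx2, with Gata3 at background throughout. Most of the control sum was the keratins Krt8 (3550 ± 1027 to 147 ± 17.8) and Krt18 (3247 ± 1260 to 128 ± 20.9, n = 3 arrays per group). Cdx2 went from 90.5 ± 58.2 to below background. Tfap2c, also listed, was higher on every shRNA array (566 ± 72.3 to 813 ± 169) but did not pass. The 7 primed epiblast markers summed to 5118 to 7385 and 3081 to 4097, and 4 of 7 fell. Dnmt3b, among those that fell, made up most of the control sum, so the sum hides larger falls of dimmer markers. Pou3f1 went from 832 ± 95.3 to 104 ± 33.9 (n = 3 arrays per group). Fgf5 and Fgf8 went from 110 ± 6.27 and 131 ± 36.4 to below background on every shRNA array. Lef1, Nodal and Otx2 did not pass. The 12 fibroblast markers summed to 803 to 1449 and 722 to 928, with Dcn and Lum at background on all arrays. Of 9 tested 1 was lower, Twist2, a share of 11.1% beside 12.6% of all genes past the threshold. With the replicate block 3 were lower, Col1a1 and Col3a1 being added. The 8 primitive endoderm markers summed to 393 to 508 and 362 to 422, and of 5 tested 1 rose and 1 fell. The 8 oocyte markers summed to 206 to 280 and 218 to 353, with Bmp15 at background on all arrays and 0 of 4 past the limma threshold, 0 of 4 at an unadjusted p below 0.05 and 1 higher with the block. The part of these marker changes in the values of the 10 genes was not tested, and these sums are given as measured.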

How the data were processed

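Total RNA of 6 samples was read on Mouse Genome 430 2.0 GeneChips, per the labels. The deposited values are 1 intensity per probe set, the MAS5 signal that the authors computed with GCOS 1.4, per the labels' protocols and the submitters' processing notes. With the lowest and highest 2% removed, every array had a mean of 150.001, and no scaling was added. What else was set upstream is not given in the sources used here.

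Probe sets were named from the platform annotation and updated through the GRCm38.p6 gene table (34741 of 34945 found). Tests ran on log2(signal + 7), the pseudocount being the rounded 20th percentile of the values. Probe sets of 1 gene with a mean at or above the 40th percentile (signal 20.2, 23186 probe sets) were kept, the brightest standing for each of 13095 genes. limma 3.58.1 in R 4.3.3 (lmFit, eBayes with intensity trend, two-sided, Benjamini-Hochberg below 0.05) compared the groups. The p-values measure the spread between these arrays, and 3 arrays per group limit the precision. Tested on simulated data of this comparison (13095 genes), the fit called 47 of 100 genes shifted by log2 1, 86 of 100 shifted by log2 2, and 4 false ones among 137 calls. The simulated noise was normal and independent between arrays, with no shared replicate effect. Far fewer genes were shifted than the 1652 that passed in the data, so these rates may not hold for the real arrays.

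The members, lists and background level were chosen with earlier results of these data known. Named genes are the 10 members, Mtf2, the 3 smallest p per list among genes past the threshold (or the 2 brightest), the 5 nearest in pattern to Khdc3 and to Tcl1, up to 2 tested flanking genes per side and the cell type markers. Zp3 and Tcl1b3 were singled out after their values were seen. The main fit did not pair the samples, and the replicate block was an alternative. Like numbers may mark pairs, since deviations from group means correlated at 0.25 to 0.40 for them and at -0.38 to -0.00 for unlike ones. Deviations cancel within a group, so the second range is not separate evidence. The labels do not say whether the numbers mark pairs. The alternatives changed the scaling (quantile or median), the pseudocount (1 or 20), the filter (none or a 60th percentile), the probe set rule (mean over a gene, or dropping _x_at and _s_at sets), the trend, the replicate block and the arrays (each left out). A floor at background was chosen after seeing the data. Promoter sequences are from RefSeq.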

Additional observations from a re-analysis of the deposited data

How the results depend on the processing

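Over 17 alternatives, the log2 changes of Khdc3 (2.78 to 3.36), Tcl1 (2.01 to 2.38), Ooep (1.43 to 1.81), Dppa2 (0.74 to 1.60), Dppa4 (0.54 to 0.72), Dppa5a (0.25 to 0.56) and Tle6 (0.27 to 0.69) stayed positive. All 170 member values moved by less than 1 SD of the replicates. This was fixed in advance for the filters, the trend and the block, which cannot change a member's value. Leaving out 1 of 3 arrays could not move a value by 1 SD either, so the bound says nothing about those fits. The sign of Dppa3 turned in 2 fits without 1 array, that of Padi6 in 1 (-0.0095 without mismatch control replicate 1), and Nlrp5 gave 0 with signals floored at background. With the replicate block 3113 genes passed in place of 1652 (1305 higher), 7 Akt pathway genes in place of 4, 3 oocyte genes in place of 1 and 7 flanking genes in place of 4. It left the other 5 related lists within 1.5 times. Of the marker lists it moved fibroblast markers from 1 to 3 and oocyte markers from 0 to 1. The filter at the 60th percentile left 4 methylated germline genes in place of 7, since fewer genes were tested, no filter gave 2 oocyte genes, and no trend gave 2 Akt pathway genes, where the cause was not tested. Without 1 array in turn the counts were 979 to 1598 for all genes, 4 to 8 for methylated germline genes, 5 to 6 for primordial germ cell genes, 2 to 4 for the DNA methylation list, 1 to 3 for the Akt pathway, 1 to 2 for oocyte genes, 0 to 1 for sequence relatives, 3 to 5 for flanking genes and 0 for 2-cell stage genes. Nlrp5, Padi6 and most oocyte and 2-cell genes lay too near background for their changes to be measured.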
